A study of Mus musculus with 16 samples.

Results

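The genes described here are 7 partners of the AMPA receptor: the cornichons Cnih2 and Cnih3, the Shisa family members Shisa6, Shisa7, Shisa8 and Shisa9, and Gsg1l. They were chosen by name, as the cornichon, Shisa and Gsg1l proteins known to bind AMPA receptors, and are 7 of the 54532 genes in the tables. RNA was sequenced from cortical parvalbumin (PV) interneurons of adult mice, fast-spiking GABAergic cells. The 7 eGFP-GluA2 libraries came from PV-Cre;lsl-eGFP-GluA2 mice, in which Cre made by PV cells switches on the GluA2 subunit fused to eGFP. The 9 eGFP libraries came from PV-Cre;lsl-eGFP mice, in which the same Cre switches on eGFP alone, so both groups carry PV-Cre and a conditional eGFP allele. The mice were adults of 113.1 ± 11.6 days, an age given for the study as a whole. Nucleated green cells were collected by flow cytometry after fixation, and the comparison addresses what removing calcium-permeable AMPA receptors from PV cells does to their RNA.

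AMPA receptors are tetramers of GluA1 to GluA4 that carry fast excitatory transmission, and the proteins bound to them set their export, their place at the synapse and the speed at which they close. Cornichons are descended from cargo receptors of the endoplasmic reticulum; at the AMPA receptor, CNIH2 and CNIH3 promote delivery to the surface and slow deactivation and desensitization. The Shisa proteins of this set are single-pass membrane proteins with a cysteine-rich extracellular part, and GSG1L is a four-pass protein of the claudin superfamily. PV interneurons make many receptors with little GluA2, which lets calcium through, and auxiliary subunits alter gating, polyamine block and calcium flux of such receptors.

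Each library held between 7454165 and 15462544 counts. All 7 genes passed the filter on low counts, which kept 26257 genes. Reads in genes of olfactory and vomeronasal receptors, which serve in the nose, are called the background here. They ran from 97.5 to 4594 CPM (counts scaled to the library total; CPM of all other genes are also scaled by TMM) and defined 3 tiers of libraries. The low tier, under 500 CPM, held 2 eGFP-GluA2 and 3 eGFP libraries, the middle tier 3 and 2, and the high tier, over 1500 CPM, 2 and 4. Labels give no batch per library, so what the background follows was not tested. In TPM, the authors' values scaled for transcript length and library total, eGFP-GluA2 libraries 6 and 7 stood apart: over 10589 genes the median log2 TPM averaged 4.25 in these libraries and lay between 3.48 and 3.97 in the others. Markers of PV interneurons were present in every library, and their 12 genes summed to 5123 to 12704 CPM in eGFP-GluA2 and 4733 to 13090 CPM in eGFP libraries. The most abundant of them were Gad1, Erbb4, Kcnc1 and Syt2. In sorted bulk cells, a change in the cells collected and a change in RNA per cell cannot be told apart.

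On GRCm38, Cnih2 (ENSMUSG00000024873) lies on chromosome 19: 5092868 to 5098521, minus strand, and Cnih3 (ENSMUSG00000026514) on chromosome 1: 181352628 to 181460641, plus strand. Shisa6 (ENSMUSG00000053930) spans chromosome 11: 66211725 to 66525964, minus strand, and Shisa9 (ENSMUSG00000022494) spans chromosome 16: 11984113 to 12270902, plus strand. Shisa7 (ENSMUSG00000053550) lies on chromosome 7: 4825552 to 4844696, minus strand, and Shisa8 (ENSMUSG00000096883) on chromosome 15: 82206168 to 82212815, minus strand. Gsg1l (ENSMUSG00000046182) lies on chromosome 7: 125878420 to 126082411, minus strand. Cnih2 shares 14 exonic bases with Yif1a on the opposite strand. The sources used here do not say whether counting used strand, so reads in those bases cannot be assigned. The other overlapping annotations (2900069G24Rik, Gm16547 and Gm16539 in Cnih3, Gm12296 in Shisa6 and Gm44874 in Gsg1l) share 0 exonic bases with their partner.

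By level per length, the 7 genes fell far below the receptor subunits. Over the 16 libraries Gria1, Gria3 and Gria4, which encode GluA1, GluA3 and GluA4, averaged 86.4, 55.4 and 67.0 TPM, and Gria2 130 TPM with reads of the transgene included. Shisa9 was the most abundant of the 7 genes at 15.4 TPM, above 83.1% of the genes tested. Shisa7 followed at 11.1 TPM, Cnih2 at 6.21 TPM, Cnih3 at 3.65 TPM and Gsg1l at 2.85 TPM. Shisa8, at 1.22 TPM, lay above 38.5% of the genes tested and Shisa6, at 0.377 TPM, above 14.1%.

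The order held in most single libraries. Shisa9 exceeded Shisa7 in 13 of 16 libraries, 5 of 7 eGFP-GluA2 and 8 of 9 eGFP. Shisa7 exceeded Cnih2, and Cnih2 exceeded Cnih3, in 16 of 16. Cnih3 exceeded Gsg1l in 13 of 16, Gsg1l exceeded Shisa8 in 16 of 16 and Shisa8 exceeded Shisa6 in 15 of 16. The ranges over libraries overlapped between every pair of neighbours in this order. Of the summed TPM of the 7 genes, Shisa9 held 35.9% in eGFP-GluA2 (SD 3.92, n = 7) and 39.1% in eGFP libraries (SD 4.77, n = 9). Shisa7 held 27.4% ± 5.47 in eGFP-GluA2 and 27.2% ± 5.96 in eGFP cells.

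**Figure D1:**
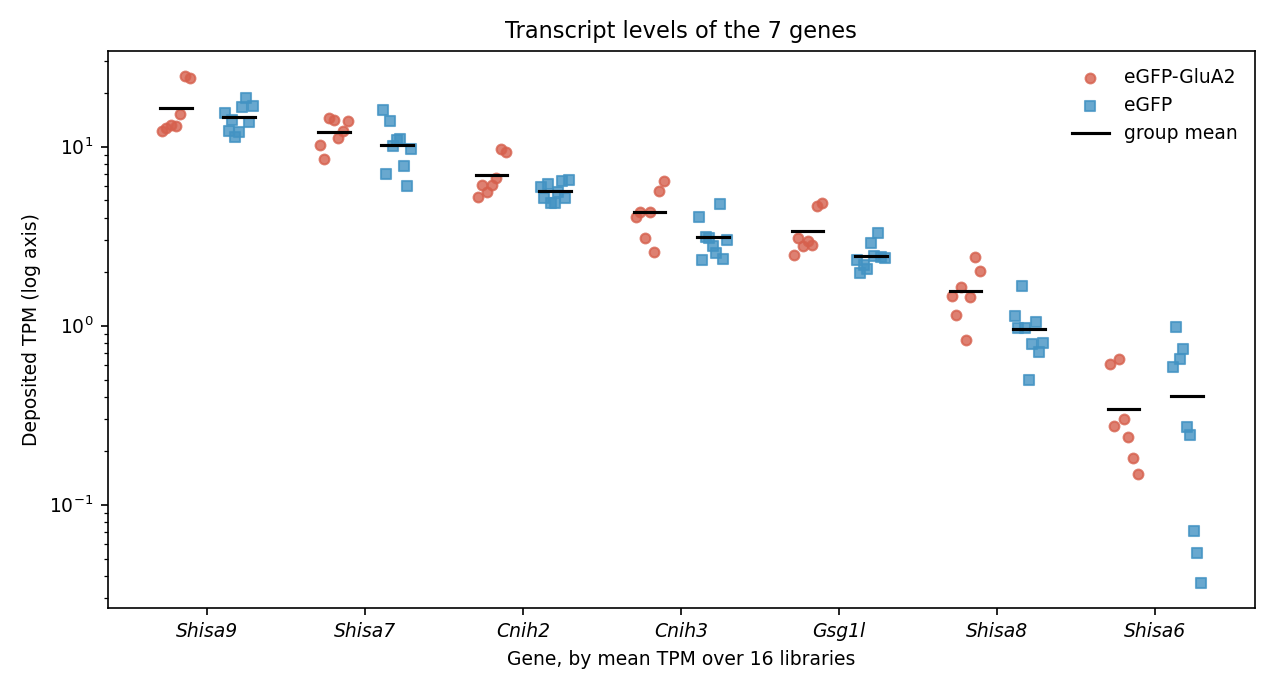
Deposited TPM of the 7 genes in each library, on a log axis, with eGFP-GluA2 libraries (circles, n = 7) left of eGFP libraries (squares, n = 9) for each gene and the group mean as a line. Shisa9 and Shisa7 lie highest, at means of 15.4 and 11.1 TPM over all libraries, and Shisa6 lowest, at 0.377 TPM and with the widest spread.

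Between the genotypes, 0 of the 7 genes passed an adjusted p of 0.05 in edgeR's quasi-likelihood test on counts, where 1 of 26257 genes, 0.00381%, passed. A fit with a term for the background also called 0 of 7, against 9 genes in all, 0.0343%. DESeq2 also called 0 of 7. Gria2, whose reads include the transgene, did not pass in edgeR without the covariate either (log2 fold change 0.71 ± 0.16, unadjusted p = 0.000375). It passed in edgeR with the covariate (adjusted p = 0.0120) and in DESeq2 (adjusted p = 0.0157). Not passing the fit without the covariate therefore does not show that a gene is unchanged. At an unadjusted p under 0.05, Shisa8 and Cnih3 lay higher in eGFP-GluA2 cells without the covariate, as did 0.564% of all genes tested, and in DESeq2, as did 0.353%. With the covariate these were Shisa8, Cnih3 and Gsg1l, 3 of 7, where 2.11% of all genes tested were higher at that p. The log2 fold changes, eGFP-GluA2 over eGFP, lay above 0 for 7 of 7 genes without the covariate (median 0.23), where 45.5% of all genes did (median -0.02). With the covariate they lay above 0 for 6 of 7 (median 0.28), where 53.1% of all genes did (median 0.01). Marker lists of several other cell types also lay mostly above 0, with 0 markers past the threshold. Of excitatory neuron markers 12 of 14 did so without the covariate (median 0.22) and 13 of 14 with it (median 0.26). Of oligodendrocyte lineage markers it was 6 of 8 without (median 0.16) and 7 of 8 with it (median 0.18), and of microglia markers 6 of 7 in both fits (medians 0.10 and 0.17). Endothelial and mural markers lay above 0 for 3 of 7 without the covariate (median -0.02) and 6 of 7 with it (median 0.12), and astrocyte markers for 2 of 7 in both. Markers of other interneurons did so for 6 of 10 without it (median 0.04) and 7 of 10 with it (median 0.18). Of these 10, Lamp5 alone had an unadjusted edgeR p under 0.05, at 0.51 ± 0.14 without the covariate and 0.52 ± 0.13 with it. PV interneuron markers lay above 0 for 7 of 12 in both fits (median 0.04 in each). The part of these markers in the result was not tested, except that fits with the excitatory marker level as a term are given below.

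**Figure D2:**
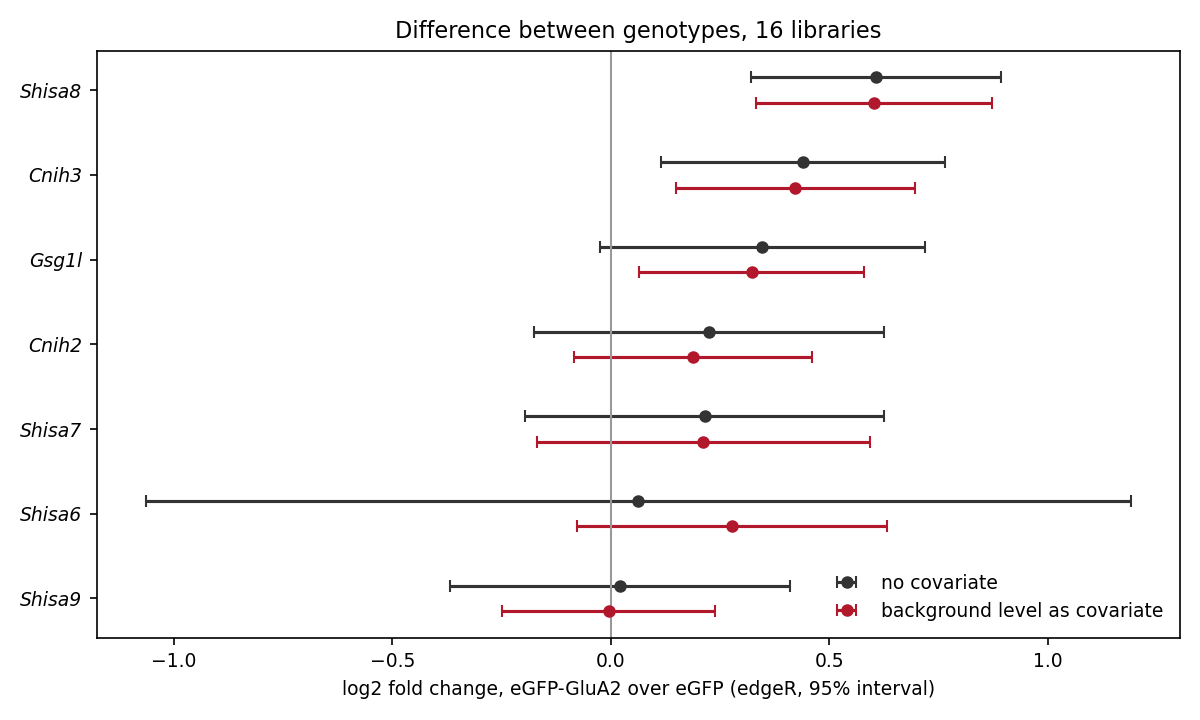
Log2 fold change, eGFP-GluA2 over eGFP, of each gene with its 95% interval from edgeR, over 16 libraries, without a covariate (black, upper) and with a term for the background level (red, lower). The intervals of Shisa8 and Cnih3 lie above 0 in both fits and that of Gsg1l in the fit with the covariate; Shisa6 has the widest interval without the covariate, -1.06 to 1.19.

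Shisa8 encodes a Shisa protein that is found in AMPA receptor complexes. It had the largest fold change of the 7 genes in both fits. Its lowest, median and highest levels were 6.11, 7.88 and 9.42 CPM in eGFP-GluA2 libraries, against 3.93, 5.04 and 6.79 CPM in eGFP libraries. The groups overlapped through 1 eGFP-GluA2 library, replicate 3; the other 6 exceeded the highest eGFP value.

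Mean Shisa8 was 7.95 CPM in eGFP-GluA2 libraries (SD 1.25, n = 7) and 5.21 CPM in eGFP libraries (SD 0.93, n = 9). This gave a log2 fold change of 0.61 ± 0.14 (SE; 95% interval 0.32 to 0.89) without the covariate, with an unadjusted p of 0.000335 and an adjusted p of 1.00 in edgeR. With the background level it was 0.60 ± 0.13 (0.33 to 0.87), with an adjusted p of 0.185 in edgeR. An exact permutation test of log2 CPM, two-sided, gave p = 0.000437 over 11440 assignments, and p = 0.00133 over the 1500 assignments that keep the tiers. In the authors' deposited table Shisa8 has a log2 fold change of 0.42 and an adjusted p of 1.00; the sources used here do not say whether those values were shrunk.

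Shisa8 was also read within each tier. In low-background libraries its levels were 9.42 and 7.88 CPM in eGFP-GluA2, against 5.04, 5.24 and 4.24 CPM in eGFP. In middle-background libraries they were 9.18, 7.38 and 8.84 CPM in eGFP-GluA2, against 3.93 and 5.01 CPM in eGFP. In high-background libraries they were 6.83 and 6.11 CPM in eGFP-GluA2, against 6.10, 6.79, 5.97 and 4.55 CPM in eGFP. The groups were apart in the first 2 tiers and overlapped in the third. The log2 fold change within a tier was 0.88 ± 0.19 in low-background (edgeR adjusted p = 0.0260), 0.91 ± 0.26 in middle-background (adjusted p = 0.785) and 0.15 ± 0.23 in high-background libraries (adjusted p = 1.00). In the low tier 154 of 19457 genes, 0.791%, passed, and Shisa8 and Shisa7 were among them. The interaction of genotype with the background level was -0.11 ± 0.06 per doubling for Shisa8 (95% interval -0.24 to 0.02, unadjusted p = 0.0867, edgeR adjusted p = 1.00), so the tiers were not shown to differ. Over all genes 0 had an interaction past the threshold (0%), and 552 had an unadjusted p under 0.05.

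**Figure D3:**
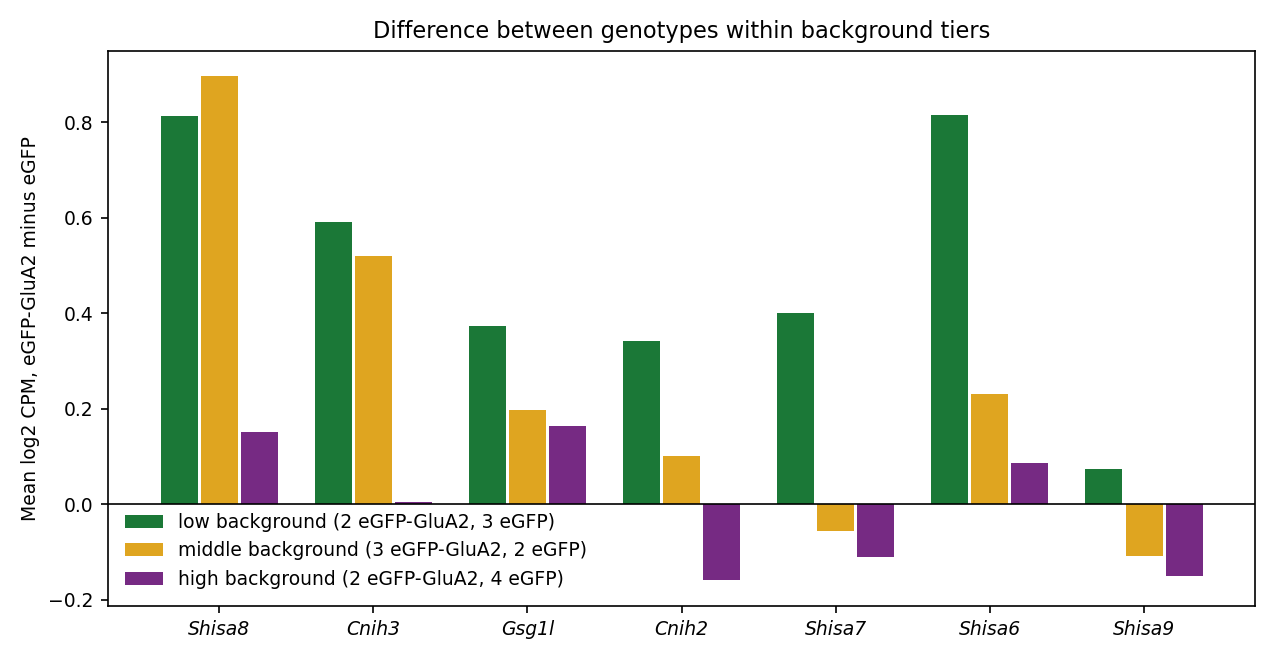
Difference in mean log2 CPM, eGFP-GluA2 minus eGFP, of each gene within low-background (2 and 3 libraries), middle-background (3 and 2) and high-background libraries (2 and 4). Shisa8 has bars of 0.81, 0.90 and 0.15; the bars of Shisa7 and Shisa9 lie above 0 in the low tier alone.

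Markers of excitatory neurons did not pass the test between the genotypes (0 of 14 in edgeR, with 2, Slc17a7 and Sv2b, at an unadjusted p under 0.05). Their 14 genes, of which 0 were at 0 counts in any library, summed to 430 to 684 CPM in eGFP-GluA2 and 359 to 644 CPM in eGFP libraries, ranges that overlap over most of their width. Slc17a7, the vesicular glutamate transporter of cortical excitatory cells, averaged 45.9 CPM in eGFP-GluA2 (SD 14.7, n = 7) and 30.7 CPM in eGFP libraries (SD 8.71, n = 9). The other abundant markers, Cux2, Camk2a and Slc30a3, had log2 fold changes of 0.05 ± 0.15, 0.18 ± 0.18 and 0.26 ± 0.16 (SE). With the mean marker level as the one covariate, on the same scaling as the counts, the log2 fold change was 0.47 ± 0.17 for Shisa8 (unadjusted p = 0.0144), 0.53 ± 0.24 for Gsg1l (unadjusted p = 0.0409) and 0.32 ± 0.20 for Cnih3 (unadjusted p = 0.138), each with an adjusted p of 0.262 or above in edgeR. With the marker level scaled by library size alone, it was 0.59 ± 0.14 for Shisa8 (edgeR adjusted p = 0.0276), 0.55 ± 0.12 for Gsg1l (adjusted p = 0.0275) and 0.48 ± 0.15 for Cnih3 (adjusted p = 0.0556), in a fit where 2525 genes passed. With the background level as a further covariate, on the same scaling as the counts, the log2 fold change of Shisa8 was 0.33 ± 0.20 (unadjusted p = 0.111), 0.16 ± 0.20 for Gsg1l and -0.02 ± 0.18 for Cnih3. With background and the marker level scaled by library size alone, it was 0.54 ± 0.16 for Shisa8 (edgeR adjusted p = 0.0875), 0.53 ± 0.13 for Gsg1l (adjusted p = 0.0707) and 0.40 ± 0.16 for Cnih3 (adjusted p = 0.158), in a fit where the median of all genes was 0.13. Among these 4 fits, values of the 3 genes lay lowest with both covariates on the scaling of the counts, a scaling added after seeing the data, and Gsg1l differed little between the scalings in the fits without the background.

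**Figure D4:**
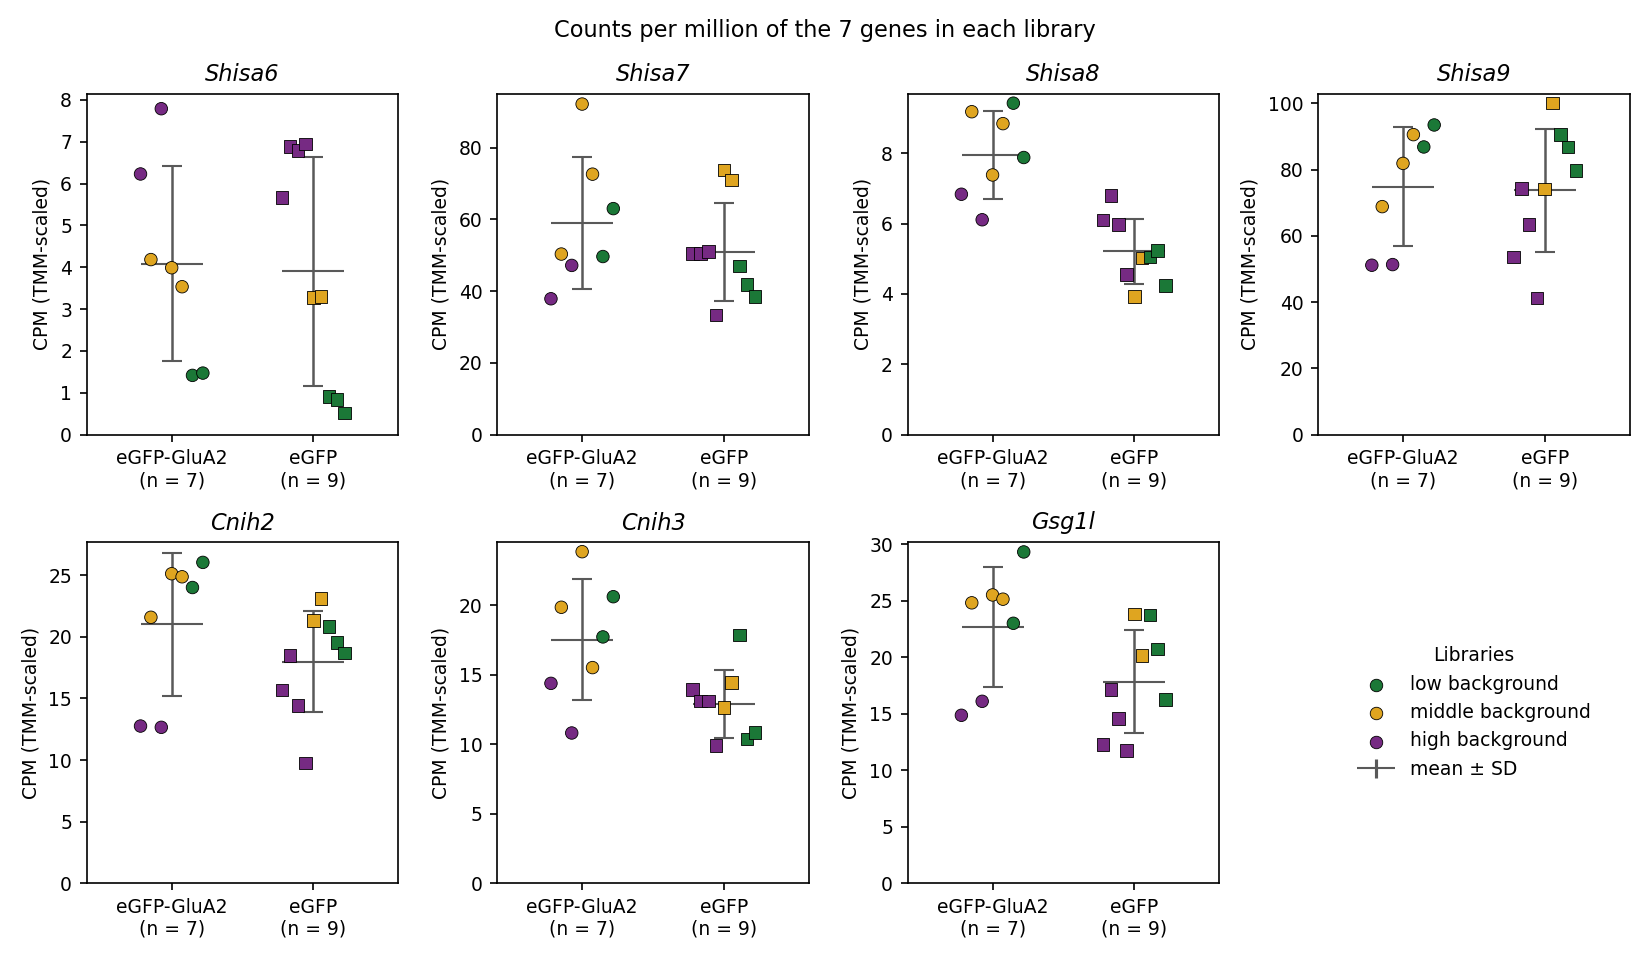
CPM (scaled by TMM) of the 7 genes in each eGFP-GluA2 (circles, left, n = 7) and eGFP library (squares, right, n = 9), coloured by background tier, with mean ± SD. Shisa8 is the gene with the clearest offset, 7.95 against 5.21 CPM; in Shisa6 the tiers separate within both groups.

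Shisa9, which encodes a protein that deepens desensitization of AMPA receptors and slows their recovery, differed between the groups by less than its spread. Its lowest, median and highest levels were 51.1, 81.9 and 93.5 CPM in eGFP-GluA2, against 41.3, 74.3 and 100.03 CPM in eGFP libraries. The eGFP range enclosed that of eGFP-GluA2. In edgeR the log2 fold change was 0.02 ± 0.18 (95% interval -0.37 to 0.41), and with the background level the interval was -0.25 to 0.24. The exact permutation test on log2 CPM gave p = 0.889, and p = 0.596 within tiers.

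Shisa7, whose product binds AMPA receptors in the hippocampus and is also an auxiliary subunit of GABA-A receptors, had 37.9, 50.3 and 92.1 CPM as lowest, median and highest in eGFP-GluA2, against 33.3, 50.5 and 73.8 CPM in eGFP libraries. The medians lay close together, and the highest value was that of eGFP-GluA2 replicate 4. Its log2 fold change was 0.22 ± 0.19 (95% interval -0.20 to 0.63; edgeR adjusted p = 1.00). Within tiers it was 0.44 ± 0.10 in low-background libraries (edgeR adjusted p = 0.0490), -0.02 ± 0.21 in middle-background and -0.12 ± 0.22 in high-background libraries. Shisa7 levels in the low tier were 49.7 and 63.0 CPM in eGFP-GluA2, against 47.0, 41.8 and 38.5 CPM in eGFP. The call thus rests on 5 libraries, and the interaction with the background level was -0.09 ± 0.10 (unadjusted p = 0.370). Over all libraries the exact permutation test on log2 CPM gave p = 0.336 for Shisa7, and p = 0.621 within tiers.

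Shisa6, whose product holds AMPA receptors at the postsynaptic density and keeps them from desensitizing, was the least abundant and the most variable. It had 17 to 88 counts in eGFP-GluA2 libraries and 6 to 87 counts in eGFP libraries. Its lowest, median and highest levels were 1.42, 3.99 and 7.79 CPM in eGFP-GluA2, against 0.520, 3.30 and 6.95 CPM in eGFP libraries. The groups overlapped over nearly their whole range. The edgeR log2 fold change was 0.06 ± 0.53 (95% interval -1.06 to 1.19) without the covariate and 0.28 ± 0.17 (-0.08 to 0.63) with it. In low-background libraries the levels were 1.42 and 1.47 CPM in eGFP-GluA2, against 0.910, 0.841 and 0.520 CPM in eGFP, and the edgeR log2 fold change there was 0.95 ± 0.45 (adjusted p = 0.416). The exact permutation test gave p = 0.616 over all assignments and p = 0.01 within tiers. In reads recovered from the authors' normalized values the log2 fold change was -0.30 ± 0.58, so no direction is given for Shisa6. Its interaction with the background level was -0.21 ± 0.09 per doubling (95% interval -0.39 to -0.03; unadjusted p = 0.0260, edgeR adjusted p = 1.00), the one interaction among the 7 genes at an unadjusted p under 0.05, which 2.10% of all genes had.

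Cnih3, which like CNIH2 slows the closing of AMPA receptors, had 10.8, 17.7 and 23.8 CPM as lowest, median and highest in eGFP-GluA2, against 9.90, 13.1 and 17.9 CPM in eGFP libraries. The groups overlapped, and 3 of 7 eGFP-GluA2 libraries exceeded the highest eGFP value. Means were 17.5 CPM in eGFP-GluA2 (SD 4.36, n = 7) and 12.9 CPM in eGFP libraries (SD 2.45, n = 9). The difference was a log2 fold change of 0.44 ± 0.15 (95% interval 0.12 to 0.77), with an unadjusted p of 0.0109 and an adjusted p of 1.00 in edgeR, and 0.42 ± 0.13 with the background level (adjusted p = 0.936). The exact permutation test gave p = 0.0233, and p = 0.048 within tiers. In high-background libraries the log2 fold change was 0.01 ± 0.21, against 0.57 ± 0.22 in low-background and 0.54 ± 0.18 in middle-background ones.

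Cnih2, more abundant in these cells than Cnih3, encodes a regulator of receptor export. Its lowest, median and highest levels were 12.7, 24.0 and 26.1 CPM in eGFP-GluA2, against 9.74, 18.7 and 23.1 CPM in eGFP libraries. Of the eGFP-GluA2 libraries 4 of 7 exceeded the highest eGFP value, while both high-background ones were among the 3 lowest of all. Its log2 fold change was 0.23 ± 0.19 (95% interval -0.17 to 0.63) and 0.19 ± 0.13 (-0.08 to 0.46) in the fit with the background (edgeR adjusted p = 1.00 in both). On log2 CPM the exact permutation test gave p = 0.342, and p = 0.427 within tiers.

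Gsg1l, whose product slows the recovery of AMPA receptors from desensitization and lowers their conductance, had 14.9, 24.8 and 29.3 CPM as lowest, median and highest in eGFP-GluA2, against 11.7, 17.2 and 23.8 CPM in eGFP libraries. The groups overlapped, and 4 of 7 eGFP-GluA2 libraries exceeded the highest eGFP value. Its log2 fold change was 0.35 ± 0.18 (95% interval -0.02 to 0.72; unadjusted p = 0.0654) and 0.32 ± 0.13 (0.07 to 0.58; unadjusted p = 0.0159) in the fit with the background (edgeR adjusted p = 1.00 in both). The exact permutation test gave p = 0.0832, and p = 0.0313 within tiers.

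Across libraries the genes also parted by the background. In the edgeR fit with genotype, the level of Shisa6 rose by 0.54 ± 0.05 log2 units (SE) per doubling of the background (adjusted p = 9.42e-11). Of all genes tested, 44.0% rose with the background at an adjusted p under 0.05 in that fit. Mean Shisa6 in eGFP-GluA2 libraries was 1.44 CPM in the low, 3.90 CPM in the middle and 7.01 CPM in the high tier. The eGFP libraries gave 0.757, 3.29 and 6.57 CPM in the same order of tiers. Shisa9, Cnih2 and Gsg1l fell by 0.14, 0.12 and 0.11 log2 units per doubling (edgeR adjusted p = 0.000214, 0.00155 and 0.00183), as did 31.5% of all genes at an adjusted p under 0.05. Shisa7, Cnih3 and Shisa8 had slopes of -0.01 ± 0.05, -0.05 ± 0.03 and -0.01 ± 0.03, which did not pass. A slope in one direction or the other was therefore common among all genes, and these 4 are not set apart by having one.

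**Figure D5:**
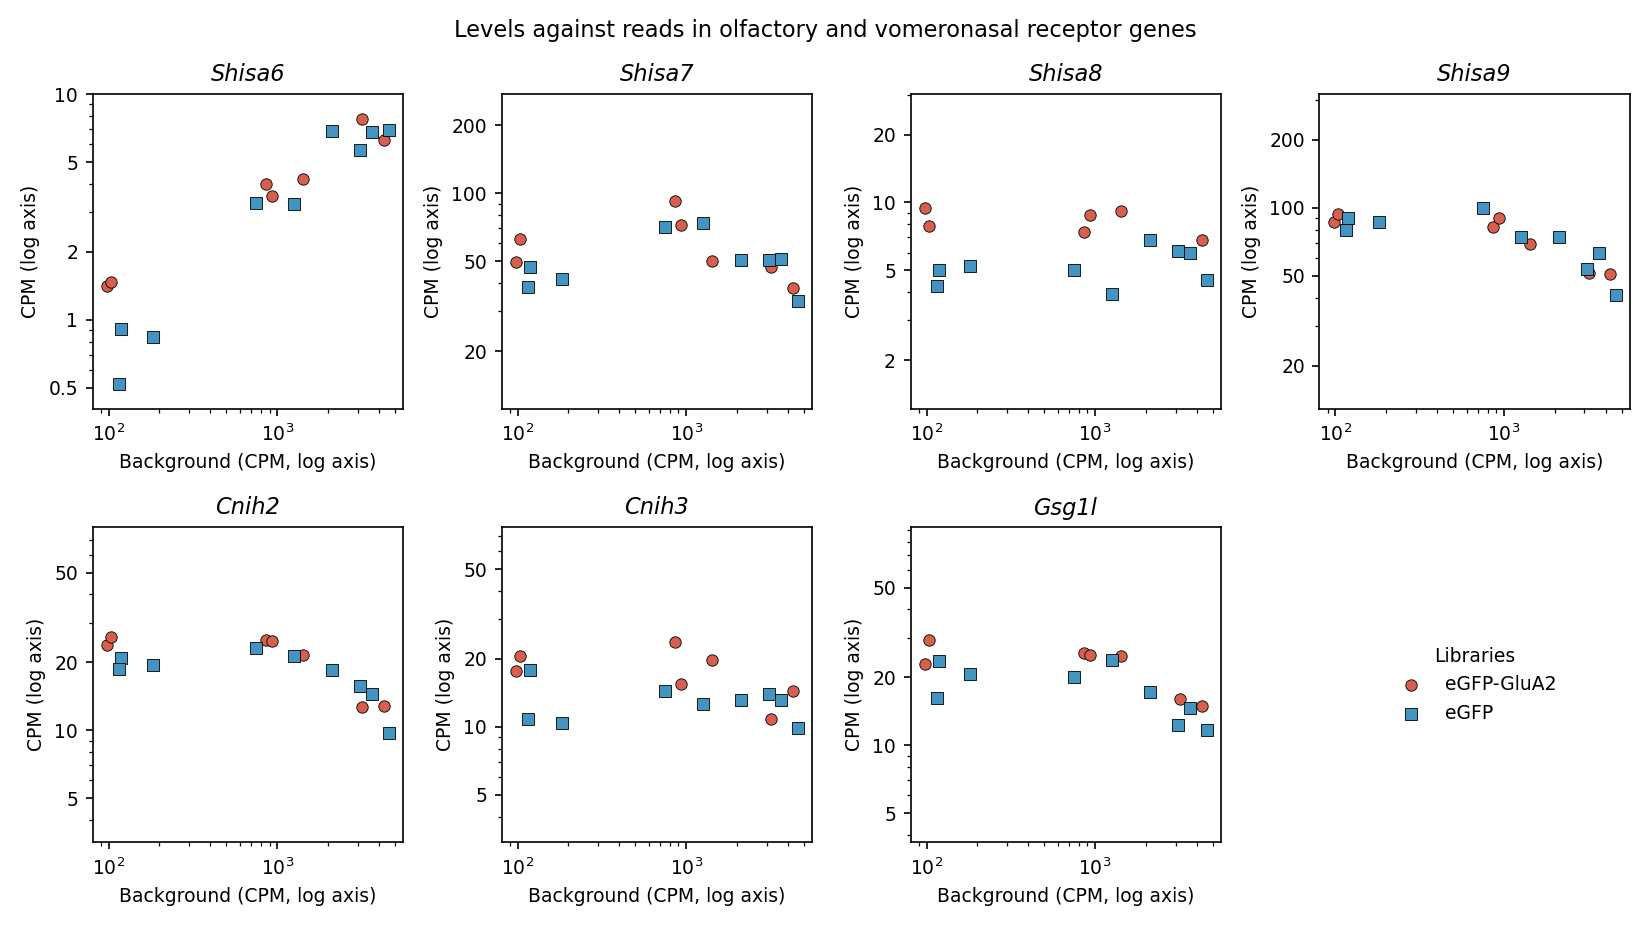
CPM of each gene against the background (CPM in olfactory and vomeronasal receptor genes), both on log axes, with eGFP-GluA2 libraries as circles and eGFP libraries as squares; each panel spans the same fold range on its level axis. Shisa6 rises by 0.54 log2 units per doubling of the background, while Shisa9, Cnih2 and Gsg1l fall.

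Each gene was also set against the receptor itself, as a percent of the summed TPM of Gria1, Gria3 and Gria4. Gria2 was left out because its reads include the transgene; Gria2 averaged 963 CPM in eGFP-GluA2 (SD 215, n = 7) and 587 CPM in eGFP libraries (SD 111, n = 9). Shisa9 came to 7.14% ± 0.54 in eGFP-GluA2 and 7.62% ± 0.83 in eGFP cells (exact permutation p = 0.217, and 0.21 within tiers). Cnih2 came to 3.08% ± 0.29 and 2.96% ± 0.31 (exact permutation p = 0.419, and 0.344 within tiers). On the log2 scale the Shisa9 ratio had an SD of 0.11 in eGFP-GluA2 and 0.16 in eGFP libraries, less than its log2 CPM, at 0.37 and 0.40. The SD was also smaller for the ratio in Cnih2 and Gsg1l, and larger in Shisa6, Shisa7 and Shisa8, in both groups. In Cnih3 it was smaller in eGFP-GluA2 and larger in eGFP libraries. Gria1 itself averaged 981 CPM in the low and 510 CPM in the high tier of eGFP-GluA2, and 869 and 518 CPM in eGFP. The part of the background in these SDs was not tested. Shisa7 came to 5.59% ± 1.62 in eGFP-GluA2 and 5.48% ± 1.90 in eGFP cells (exact permutation p = 0.827, and 0.778 within tiers).

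Gsg1l came to 1.48% ± 0.12 of the subunits in eGFP-GluA2 and 1.28% ± 0.20 in eGFP cells, a log2 difference of 0.22 (exact permutation p = 0.0328, and 0.06 within tiers). Shisa8 came to 0.687% ± 0.15 in eGFP-GluA2 and 0.505% ± 0.18 in eGFP cells, a log2 difference of 0.49 (exact permutation p = 0.0446, and 0.002 within tiers). For Cnih3 the values were 1.92% ± 0.43 in eGFP-GluA2 and 1.63% ± 0.35 in eGFP cells (exact permutation p = 0.175, and 0.153 within tiers). For Shisa6 they were 0.175% ± 0.13 in eGFP-GluA2 and 0.235% ± 0.22 in eGFP cells (exact permutation p = 0.907, and 0.311 within tiers). These are 14 exact tests over all assignments, 7 on log2 CPM and 7 on the ratio. Each of the 14 was also run within tiers, and the p-values of both kinds are not adjusted. Leaving out single libraries took the Shisa8 ratio past 0.05 for 10 of 16 libraries (p from 0.0143 to 0.0885) and the Gsg1l ratio for 7 of 16.

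Relatives of the 7 genes and other partners of the receptor were read in the same fits. Of 11 further members of the same families, among them Cnih1 and Shisa2, 10 were tested, 6 lay above 0 and 4 below (median 0.04), and 0 passed in edgeR with or without the covariate. Those of smallest p were Shisa2 at 0.16 ± 0.13 and Gsg1 at 0.46 ± 0.42 without the covariate and 0.61 ± 0.20 with it (unadjusted p = 0.00579). Of 26 other partners, such as the TARPs, neuronal pentraxins and porcupine, 21 lay above 0 and 5 below (median 0.13), and 0 passed, with 2 at an unadjusted p under 0.05 in edgeR, where 1.12% of all genes had one, and 2 in DESeq2, where 0.913% had one. With the covariate 22 lay above 0, 4 had such a p, as did 3.79% of all genes, and 0 passed. Nptx1, a secreted pentraxin that gathers AMPA receptors, averaged 22.4 CPM in eGFP-GluA2 (SD 4.41, n = 7) and 16.3 CPM in eGFP libraries (SD 2.04, n = 9), and its log2 fold change was 0.46 ± 0.12. Nrn1, which encodes neuritin, had 0.46 ± 0.17. Gria1, Gria3 and Gria4 had log2 fold changes of 0.17 ± 0.21, 0.06 ± 0.18 and 0.08 ± 0.18.

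For each gene the most similar profiles over the 16 libraries were sought among 13072 genes with a mean of at least 5 CPM, by the root-mean-square distance of centred log2 CPM. Shisa9 was nearest to Gas7 (0.0874) and Synm (0.0903), and Cnih2 to Grik5 (0.101), which encodes a kainate receptor subunit, and L1cam (0.110). Gsg1l was nearest to Plxna1 (0.129) and Tubb6 (0.135), Shisa7 to Prr12 (0.166) and Ptpn23 (0.180), and Cnih3 to Camk1g (0.189) and Slit1 (0.195). Shisa6 was nearest to Padi2 (0.204) and Pald1 (0.217), against a median distance of 1.29 to all candidates. Shisa8 was nearest to Eps8 (0.226) and 2810029C07Rik (0.227), against a median of 0.485. Its closest matches thus lay farther off than those of the other 6 genes, followed by those of Shisa6. These were also the genes of fewest counts, 41 to 133 a library for Shisa8 and 6 to 88 for Shisa6. The part of counting noise in the distances was not tested. Eps8 encodes an actin-capping protein. These distances describe the libraries and were not tested; the profiles share the background, depth and scaling of the same libraries.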

How the data were processed

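RNA-seq of sorted PV interneurons was analysed in 16 libraries, 7 eGFP-GluA2 and 9 eGFP, numbered as biological replicates in the labels. Per the labels' protocols, polyA RNA of fixed cells was read as 150-bp pairs. The authors used bcbio-nextgen 1.2.3, STAR on GRCm38, Sailfish with the Ensembl annotation, and DESeq2, per the series' design text. The deposited counts are whole reads per gene, not normalized; the sources used here do not name their counter. The deposited TPM are scaled for transcript length. The authors' table of comparisons holds signal values (counts divided by a size factor), log2 fold changes, a test statistic (a score) and p-values, as deposited; all signal values were whole multiples of 1 read within a tolerance of 0.001 (100%), and the test on these recovered reads called 3 genes. The sign of the deposited fold changes matched eGFP-GluA2 over eGFP for 99.52% of genes.

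Identifiers were named from GENCODE M21 (54409 of 54532), and coordinates are 1-based on GRCm38. Genes were tested with edgeR 4.0.16 (TMM, filterByExpr, robust quasi-likelihood F test, Benjamini-Hochberg over all genes, threshold 0.05), without a covariate and with log2 CPM of 1953 autosomal Olfr, Vmn1r and Vmn2r genes; that background level is scaled by library total and other CPM by TMM, and log2 CPM uses a prior count of 2. Standard errors come from the F statistic. For single values, exact permutation tests (two-sided) were run in Python by listing every assignment. Alternatives were DESeq2 1.42.0, other scalings, limma 3.58.1 on log2(TPM + 0.5), tiers, covariates, a replicate block and leaving out libraries. Rescaled TPM, fits without eGFP-GluA2 libraries 6 and 7, the interaction and TMM-scaled marker levels were added after seeing the data. The scripts ran in R 4.3.3 and Python 3.11.15, and the edgeR test was checked on simulated data. Named relatives and partners are those past the threshold or, with none, the 2 of smallest p; markers are the 4 most abundant. Members and lists were chosen with earlier results of these data known. The sources used here give no age, sex or batch per library.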

Additional observations from a re-analysis of the deposited data

How the results depend on the processing

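None of the 7 genes passed without each single library in turn or in any other fit except those named here. Low-background libraries alone called 2 of the 7 (Shisa7 and Shisa8), and so did the excitatory marker level scaled by library size (2: Shisa8 and Gsg1l, where 2525 genes passed). That call was lost when the marker level was scaled by TMM, added after seeing the data, where 1 gene passed. Against 1 gene in the fit without covariates, 9 passed with the background level, 8 in DESeq2, 11 with tiers as a block, 37 with the background and the marker level scaled by library size, 3 in recovered reads, and 154, 5 and 5 in low-, middle- and high-background libraries alone. Upper-quartile scaling, library size alone and each limma fit on TPM (pseudocounts 0.5, 0.1 and 1, no filter, and TPM rescaled by TMM) gave 2. With the background level the count was 3 without eGFP-GluA2 libraries 6 and 7 and 4 to 11 without single libraries.

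The labels do not say whether the replicate numbers pair the libraries. Correlations of same-numbered libraries ran from -0.03 to 0.90, and the best match of eGFP-GluA2 libraries was their own number for replicates 2 and 7 alone. These correlations also carry the background level, so they cannot decide whether the numbers mark pairs. The replicate block called 8 genes, and 6 with a background term added, and 0 of the 7 in either.

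Signs turned for Shisa6, Shisa9, Cnih2 and Cnih3, which no fit called, and for Shisa7, which the low tier alone called. The cause was not tested. Shisa6 was at -0.40 with the marker covariate (-1.11 on TMM scaling), -0.038 in limma with pseudocounts 0.5 and 1 and without a filter, -0.051 on rescaled TPM, -0.30 in recovered reads, -0.29 with the replicate block, and between -0.17 and 0.22 without single libraries. Shisa9 was at -0.0046 with the background level, -0.075 with tiers as a block, -0.039 with the replicate block and background, -0.12 in middle- and -0.18 in high-background libraries, -0.11 without eGFP-GluA2 libraries 6 and 7 (0.066 with the background level), and -0.22 with background and TMM-scaled markers. Without single libraries it was between -0.055 and 0.096, and with the background level between -0.060 and 0.060. Shisa7 was at -0.037 with the replicate block and background, -0.020 in middle- and -0.12 in high-background libraries. Cnih2 was at -0.19 in the high tier and -0.086, like Cnih3 at -0.021, with background and TMM-scaled markers. Relative to Gria1, Gria3 and Gria4, Shisa7 lay between -0.049 and 0.17 and Shisa6 between -0.27 and 0.40 without single libraries. Shisa6 had 6 to 88 counts a library, and its SE was 0.53 without and 0.17 with the background level.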
